A study of Saccharomyces cerevisiae with 16 samples.

Results

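Transcript levels 120 s after a glucose pulse were set against those of the first minute after it. The question was which transcripts of glucose-limited yeast changed between these times. The comparison took 7 of the 16 arrays of the series: 3 arrays at 120 s, from pulses 1, 2 and 3, and 4 arrays of the first minute, at 30 s and 60 s from pulses 2 and 3. The steady-state arrays, taken before the pulse, did not enter the test, so it asks what changed during the response and not what differs from the unperturbed culture. Arrays were chosen by time and pulse alone, with no measured value in the rule.

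All cells were Saccharomyces cerevisiae CEN.PK 113-7D, a haploid laboratory strain, grown with air and with glucose as the limiting nutrient in a chemostat, a vessel whose inflow and outflow are held equal. The dilution rate was 0.05 per hour, and a pulse of glucose injected within a second brought the residual concentration to about 1 g per litre (5.56 mM). At both 120 s and the first minute the cells had therefore received the same kind of pulse and differed in the time since it, and the 120 s group also holds a culture, that of pulse 1, which the first minute lacks. Total RNA from cells quenched in liquid nitrogen was hybridized to Affymetrix arrays, which read each transcript through a set of short probes.

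Yeast held at scarce glucose respires it and keeps genes for respiration, reserve carbohydrates and the use of other carbon sources switched on. A sudden supply of glucose is read by membrane sensors and by the Ras, cAMP and protein kinase A pathway, and the Snf1 kinase, which keeps alternative carbon genes active, is shut down. In the better known later response the transcripts of those genes decline while transcripts for ribosome assembly and biosynthesis accumulate. A transcript level can move no faster than synthesis and decay allow, so the first minutes show which messages are made or lost soonest.

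Each array was rescaled to a common trimmed mean signal of 150, and signals under a floor of 12 were set to 12. Signals below are in these units, and changes are differences of log2 signals, 120 s minus first minute. The 30 s and 60 s arrays of a pulse are 1 culture sampled at 2 times, so the first minute stands for 2 cultures and 120 s for 3, and p-values measure the spread between these 7 arrays. Pulse 1 has no array in the first minute. Among the 7 arrays the hybridization or scan day was the same as the pulse, so day and culture cannot be told apart, and the values within pulse 2 and within pulse 3 are also the values within a day. No array stood apart: log2 signals of pairs correlated across genes at 0.980 to 0.989 between the groups, 0.984 to 0.988 within 120 s and 0.980 to 0.991 within the first minute. The 120 s array of pulse 1 had the highest deposited trimmed mean of the 7, 222, against 104 to 137 on the others, and results that rest on it are given with its value.

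The 4 first-minute arrays were also tested against each other, although 2 against 2 arrays leave little power. Between 60 s and 30 s, 0 of 5289 genes passed limma's test at an adjusted p under 0.05, 192 had an unadjusted p under 0.05, and the smallest adjusted p was 0.993. With the pulse as a block these numbers were 0 and 276.

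Markers of the other mating type and of sporulation were read as a check on the cells. All 7 markers of a cells were tested, and their summed signal was 6100 to 6695 on the 120 s arrays and 5077 to 8982 on the first-minute arrays. Of the 4 alpha-cell markers 3 were tested. The sums over all 4 were 375 to 465 at 120 s and 394 to 461 in the first minute. The median log2 signal of the 3 tested, relative to the first minute and to all genes, was nonetheless lower on every 120 s array. It was -0.25 to -0.18 there, against 0.02 to 0.08 in the first minute. STE3, the receptor for a-factor, had a log2 change of -0.39 ± 0.14 without overlap (limma, adjusted p = 0.552), and the part of this shift in the results was not tested. Of the 12 sporulation markers 8 lay at the floor on all 7 arrays, NDT80, SPO11 and SPO13 among them. No marker passed the test.

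By 120 s only a handful of genes had moved: of 5289 genes tested, 3 rose and 2 fell. MNC1, which encodes a small cysteine-rich protein of the CYSTM family, rose 3.12-fold, DIA1, a gene of invasive and pseudohyphal growth, rose 2.71-fold, and ICY1, whose product is needed by cells that lack mitochondrial DNA on rich medium, rose 2.14-fold. YMR206W, a gene of unknown function, fell 2.27-fold, and RGI1, which encodes a protein of respiratory energy metabolism, fell 2.08-fold. The called genes were 0.0567% of those tested in the higher direction and 0.0378% in the lower direction (limma, Benjamini-Hochberg adjusted p under 0.05). These 5 were also the only genes whose log2 change reached 1 in size, out of 418 with an unadjusted p under 0.05, of which 130 were higher and 288 lower. The median log2 change of all genes was -0.02. A gene with the median standard error of 0.14 had a 95% interval of 0.30 log2 units on either side before any adjustment for the number of genes, and the smallest change that passed the adjusted threshold was 1.06 in size.

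**Figure D1:**
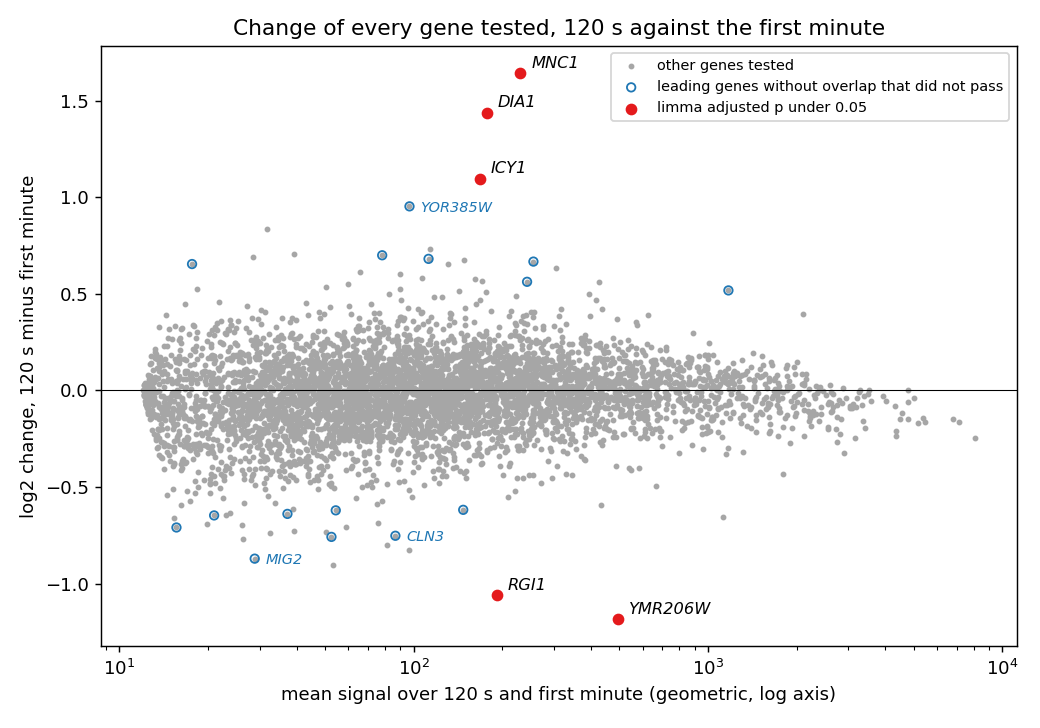
Log2 change of all 5289 genes tested (vertical axis, 120 s minus first minute) against their mean signal (horizontal axis, log scale). The 5 genes that passed limma's adjusted threshold, in red, lie beyond a log2 change of 1 in size, and the 15 blue rings mark the leading genes without overlap that did not pass, among them YOR385W at 0.95, CLN3 at -0.75 and MIG2 at -0.87.

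MNC1 (YBR056W-A, on chromosome II) had signals of 489, 381 and 355 at 120 s in pulses 1, 2 and 3, against 128 and 125 at 30 s and 146 and 122 at 60 s in pulses 2 and 3. Every 120 s array lay more than 200 units above every array of the first minute, and the first-minute arrays lay close to the 120, 133 and 127 of the steady state. Its mean was 408 ± 70.7 at 120 s (SD, n = 3) and 130 ± 10.8 in the first minute (SD, n = 4), a log2 change of 1.64 ± 0.13 (SE; limma, adjusted p = 0.000104). Within pulse 2 the log2 change was 1.48 and within pulse 3 it was 1.53, while the pulse 1 array lay 1.91 above the first-minute mean. Levels went on upward afterwards, to 1131 at 210 s in pulse 1 and to 1094, 624 and 615 at 300 s.

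DIA1 (YMR316W, on chromosome XIII) had signals of 386, 248 and 247 at 120 s, against 132 and 107 at 30 s and 105 and 85.0 at 60 s. The 120 s arrays again lay above all of the first minute, and in both pulses the 60 s value was lower than the 30 s value. The means were 294 ± 80.0 (SD, n = 3) and 107 ± 19.1 (SD, n = 4), a log2 change of 1.44 ± 0.18 (limma, adjusted p = 0.00499). The change was 1.08 within pulse 2, 1.37 within pulse 3 and 1.87 for the pulse 1 array against the first-minute mean. At 300 s the signals were 1416, 772 and 654, with pulse 1 again the highest.

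ICY1 (YMR195W, on chromosome XIII) had signals of 218, 268 and 249 at 120 s, against 123 and 104 at 30 s and 128 and 104 at 60 s. Here pulse 1 was the lowest of the 120 s arrays, and the groups did not overlap. The means were 245 ± 25.2 (SD, n = 3) and 115 ± 12.6 (SD, n = 4), a log2 change of 1.10 ± 0.12 (limma, adjusted p = 0.00216), with 1.09 within pulse 2 and 1.26 within pulse 3. Its later levels lay on both sides of those at 120 s: 352 on the single array at 210 s, 210, 273 and 188 at 300 s and 249 and 301 at 330 s.

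YMR206W (on chromosome XIII) had signals of 359, 316 and 307 at 120 s, against 712 and 732 at 30 s and 689 and 841 at 60 s. Every 120 s array lay below every first-minute array, and the steady state read 610, 535 and 820. The means were 327 ± 28.1 (SD, n = 3) and 743 ± 67.6 (SD, n = 4), a log2 change of -1.18 ± 0.10 (limma, adjusted p = 0.000196). Within pulse 2 the change was -1.15 and within pulse 3 it was -1.35. By 300 s only 46.3, 37.4 and 47.9 remained, and 25.4 and 28.0 at 330 s.

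RGI1 (YER067W, on chromosome V) had signals of 174, 125 and 105 at 120 s, against 275 and 287 at 30 s and 245 and 291 at 60 s. The groups did not overlap, but pulse 1 was the highest both at 120 s and in the steady state, where the 3 signals were 566, 222 and 257. The means were 134 ± 35.4 (SD, n = 3) and 274 ± 20.7 (SD, n = 4), a log2 change of -1.06 ± 0.15 (limma, adjusted p = 0.0179), with -1.05 within pulse 2, -1.47 within pulse 3 and -0.66 for the pulse 1 array. It was the least secure of the 5 calls: it held in 13 of 27 alternative analyses, with limma adjusted p-values of 0.00142 to 0.82, and was lost when any 1 of the 7 arrays other than the 120 s array of pulse 1 was left out. MNC1 and YMR206W were called in 27 of 27 and DIA1 and ICY1 in 22 of 27. With the first-minute arrays of each culture averaged to 1 value, DIA1, ICY1 and RGI1 were not called. Over the alternatives the limma adjusted p-values reached 0.357 for DIA1 and 0.116 for ICY1. At 300 s RGI1 read 20.1 in pulse 1 and lay at the floor in pulses 2 and 3, so later changes are understated.

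**Figure D2:**
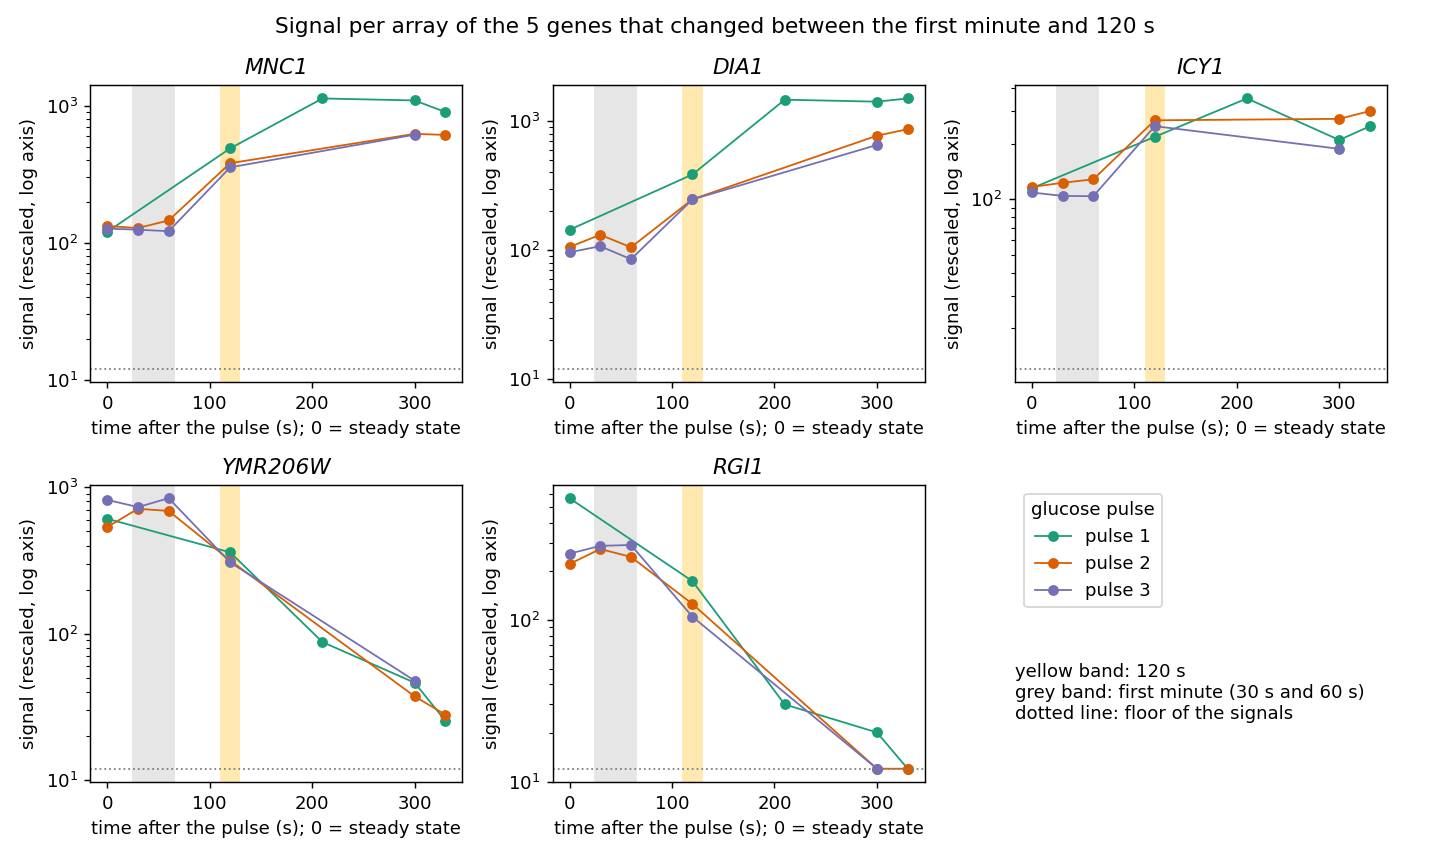
Rescaled signal (log axis) against time after the pulse in seconds for the 5 called genes on all 16 arrays, with 1 line per pulse, 0 standing for the steady state, the 120 s arrays in the yellow band and the first minute in the grey band. MNC1, DIA1 and ICY1 are higher at 120 s than anywhere in the grey band, with MNC1 at 355 to 489 in the yellow band and 122 to 146 in the grey one, while YMR206W and RGI1 are lower at 120 s and decline further to 300 s.

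Each of the 5 genes was read by 1 probe set. Of the 5, 3 lie on chromosome XIII, but none are direct neighbours, and none of the 10 genes next to them passed the test. The neighbours' log2 changes ran from -0.24 for PFK2, a subunit of phosphofructokinase beside YMR206W, to 0.24 for SNR11, a small nucleolar RNA beside ICY1. MUM2 and the tRNA gene YNCB0013W, on the sides of MNC1, had 0.01 and 0.03.

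Relatives of MNC1, DIA1 and RGI1 were looked up after the values were known. Relatives of ICY1 and YMR206W are not given here. YOR385W, the duplicate of DIA1 left by the ancient doubling of the yeast genome, had signals of 161, 108 and 136 at 120 s, against 79.5 and 57.6 at 30 s and 64.2 and 76.3 at 60 s. Its groups did not overlap, and its log2 change of 0.95 ± 0.16 was the next largest among leading genes, with a limma adjusted p of 0.0782. It passed in 3 of 27 alternative analyses. Of the CYSTM relatives of MNC1, CPP2 averaged 506 ± 48.7 at 120 s (SD, n = 3) and 377 ± 32.9 in the first minute (SD, n = 4), a log2 change of 0.42 ± 0.11 (limma, adjusted p = 0.294). CPP3 had 0.40 ± 0.12 (limma, adjusted p = 0.486) and CPP1 had 0.21 ± 0.13 (limma, adjusted p = 0.735). The groups of CPP2 and CPP3 did not overlap and those of CPP1 did. RGI2, the duplicate of RGI1, had means of 2573 ± 90.7 at 120 s (SD, n = 3) and 3247 ± 521 in the first minute (SD, n = 4), a log2 change of -0.32 ± 0.12 (limma, adjusted p = 0.583) without overlap. Whether probes of these pairs share signal was not tested.

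Below the threshold, 181 genes (3.42% of those tested) were higher on all 3 arrays at 120 s than on all 4 of the first minute, and 266 genes (5.03%) were lower on all 3, the called genes included. The leading genes of this kind are ranked by unadjusted p among those with a log2 change of at least 0.5 in size, and none of those named next passed limma's adjusted threshold.

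On the higher side, the smallest unadjusted p after YOR385W belonged to ATP5. ATP5, the stator subunit of the mitochondrial ATP synthase, had signals of 290, 292 and 300 at 120 s, against 168 and 232 at 30 s and 191 and 211 at 60 s. Its 3 arrays at 120 s were almost equal, and its log2 change was 0.56 ± 0.12 (limma, adjusted p = 0.201). The steady state of ATP5 read 210, 350 and 266, a range that holds its 120 s signals. At 300 s against the steady state its log2 change was -0.01. OAC1, the mitochondrial oxaloacetate carrier, had 1108, 1468 and 1663 at 120 s, against 940 and 934 at 30 s and 991 and 1032 at 60 s. Pulse 1 was its lowest 120 s array, and its log2 change of 0.52 (limma, adjusted p = 0.294) became 0.68 with the pulse as a block, where it passed (limma, adjusted p = 0.0327). The same change of 0.68 passed without the pulse 1 array (limma, adjusted p = 0.0429), but OAC1 was called in only 3 of 27 alternatives, the day as a block being the third, and not with the pulse as a random block or with 1 value per culture. ISU2, a scaffold for iron-sulfur clusters, had 248, 341 and 379 at 120 s, against 241 and 162 at 30 s and 195 and 210 at 60 s, a log2 change of 0.67 (limma, adjusted p = 0.294).

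CMK2, a calmodulin-dependent protein kinase, had signals of 126, 82.6 and 92.0 at 120 s, against 57.0 and 66.6 at 30 s and 57.4 and 62.5 at 60 s. Its groups were clearly apart, with a log2 change of 0.70 (limma, adjusted p = 0.247). In the steady state it read 93.9, 77.1 and 63.4, and at 300 s 474, 173 and 153. YET2, an endoplasmic reticulum protein, had a log2 change of 0.68 (limma, adjusted p = 0.217). Its signals were 169, 118 and 141 at 120 s, and 150, 130 and 93.8 in the steady state. UGA4, the permease for gamma-aminobutyrate, had 0.65 (limma, adjusted p = 0.294), but all its signals in both groups were under 25 and 1 first-minute array was at the floor. Its steady-state signals were 23.5, 24.1 and 12.

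On the lower side there were 8 such genes. CLN3, the G1 cyclin that couples growth to cell cycle entry, had signals of 56, 67.7 and 77.1 at 120 s, against 107 and 118 at 30 s and 125 and 99.0 at 60 s. All 3 were lower than the first minute, by 0.75 on average on the log2 scale (limma, adjusted p = 0.157), whereas at 300 s the signals were 134, 221 and 197. MIG2, a repressor of the glucose repression pathway, had 22.6, 21.0 and 19.6 at 120 s, against 29.7 and 53.2 at 30 s and 37.6 and 36.9 at 60 s. Its log2 change was -0.87 (limma, adjusted p = 0.201) close to the floor, which it reached on 2 of 3 arrays at 300 s. ERT1, a regulator of gluconeogenic genes, had 12.1, 12.5 and 12 at 120 s, against 17.3 to 23.7 in the first minute, so its log2 change of -0.71 (limma, adjusted p = 0.201) is bounded by the floor.

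RAX2, a landmark of bud site selection, had signals of 47.3, 38.9 and 35.2 at 120 s, against 78.4 and 71.0 at 30 s and 60.0 and 63.6 at 60 s. Its log2 change was -0.76 (limma, adjusted p = 0.201), and at 300 s it was back at 66.2, 71.8 and 90.3. MPF1 averaged 29.8 ± 1.99 at 120 s (SD, n = 3) and 46.5 ± 3.81 in the first minute (SD, n = 4), a change of -0.64 (limma, adjusted p = 0.201), and lay at the floor on all 3 arrays at 300 s. The remaining leading genes were TSR2, a factor of small ribosomal subunit assembly at -0.65, and ECM30 and YLR297W at -0.62 each.

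**Figure D3:**
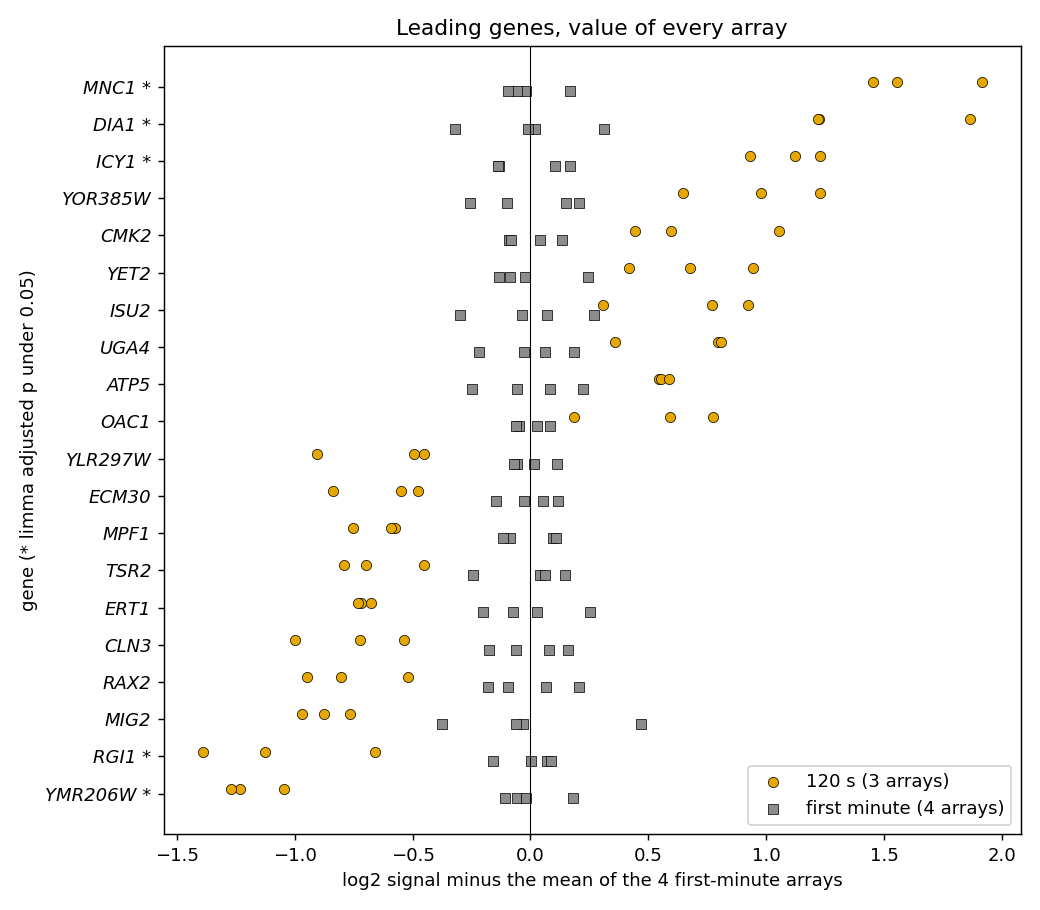
Log2 signal of every array minus the mean of the 4 first-minute arrays (horizontal axis) for the 20 leading genes, with the 120 s arrays as circles and the first-minute arrays as squares. For the 5 starred genes that passed limma's threshold the 3 circles lie at least 0.66 from the first-minute mean, and OAC1 and ISU2 each have 1 circle close to their squares.

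The arrays at 300 s and in the steady state took no part in this test, although they come from the same cultures, so they show where these genes went. At 300 s against the steady state, 451 of the 5289 genes were higher (8.53%) and 546 lower (10.3%), with a median log2 change of -0.13. Centring each array on its median gave 561 higher and 398 lower, so the balance of directions depends on the scaling, and list medians at 300 s are given relative to all genes. These 997 calls depend on single arrays: they numbered 512 when the 300 s array of pulse 2 was left out, 592 when that of pulse 3 was and 625 when the steady-state array of pulse 1 was. The 3 genes that rose by 120 s were all higher at 300 s, MNC1 by 2.57, DIA1 by 2.98 and ICY1 by 0.96 on the log2 scale (limma, adjusted p = 7.12e-05, 0.000105 and 0.00477). Both genes that fell were lower, with log2 changes of -3.88 for YMR206W and -4.48 for RGI1 (limma, adjusted p = 5.59e-06 and 5.84e-05). Within the day that held both 300 s and steady-state arrays of pulse 3, the log2 differences were 2.28 for MNC1, 2.76 for DIA1, 0.79 for ICY1, -4.10 for YMR206W and -4.42 for RGI1. On the other such day, with the 300 s array of pulse 1 and the steady-state array of pulse 2, they were 3.04, 3.74, 0.85, -3.53 and -3.46 for the same genes in that order.

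With the called genes counted in, directions were more mixed among the genes without overlap. Over all 5289 genes tested, 8.53% were called higher at 300 s and 10.3% lower. Of the 181 genes without overlap on the higher side, 35 were called higher at 300 s and 10 lower. Of the 266 on the lower side, 54 were called lower and 14 higher. Among the 15 leading genes that did not pass, 4 of the 7 higher ones were called higher at 300 s and 0 lower, while of the 8 lower ones 2 were called lower and 1 higher. The 300 s arrays of pulses 2 and 3 share their day with the 120 s arrays of those pulses, and the part of this in these counts was not tested.

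Seen from the other end, most of the strong later movers had overlapping arrays at 120 s and in the first minute. There were 19 genes at least 4-fold higher at 300 s than in the steady state and 20 at least 4-fold lower, chosen after their values were seen. Of the 19, 3 were without overlap in the same direction at 120 s (15.8%, against 3.42% of all genes): MNC1, DIA1 and YOR338W, a gene of unknown function with a log2 change of 0.43 ± 0.13. TPO2, a polyamine exporter, had 29.7 to 35.6 at 120 s and 24.6 to 36.9 in the first minute, a log2 change of 0.07 ± 0.16, against 4.55 at 300 s. MAE1, the mitochondrial malic enzyme, had 0.21 ± 0.12, VID24, a subunit of the GID ubiquitin ligase, had 0.07 ± 0.19, and PDE2, the high-affinity cAMP phosphodiesterase, had 0.04 ± 0.16. MCH5, a riboflavin transporter, and TDA6 lay below the first minute without overlap, with log2 changes of -0.28 and -0.54, and TDA6 was at or near the floor at 120 s.

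Of the 20 genes at least 4-fold lower at 300 s, 7 were lower without overlap at 120 s (35%, against 5.03% of all genes) and 0 higher (3.42% of all genes), and their median log2 change at 120 s was -0.26, against 0.07 for the 19 higher ones. The 7 were YMR206W, RGI1, RGI2, ISF1, TMA10, YJR115W and MPF1. ISF1, which acts in mitochondrial function, had means of 509 ± 46.1 at 120 s (SD, n = 3) and 671 ± 37.4 in the first minute (SD, n = 4), a log2 change of -0.40 ± 0.10 (limma, adjusted p = 0.294). TMA10, whose paralog STF2 is linked to regulation of the ATP synthase, had 1546 ± 59.5 and 2092 ± 235, a change of -0.43 ± 0.11 (limma, adjusted p = 0.294). HAP4, the activating subunit of the HAP complex that drives respiratory genes, had 264 to 366 at 120 s and 359 to 419 in the first minute, which overlap, a change of -0.30 ± 0.12. MTH1, a corepressor of hexose transporter genes that is degraded when glucose is sensed, had 0.06 ± 0.11 before its later change of -2.53.

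**Figure D4:**
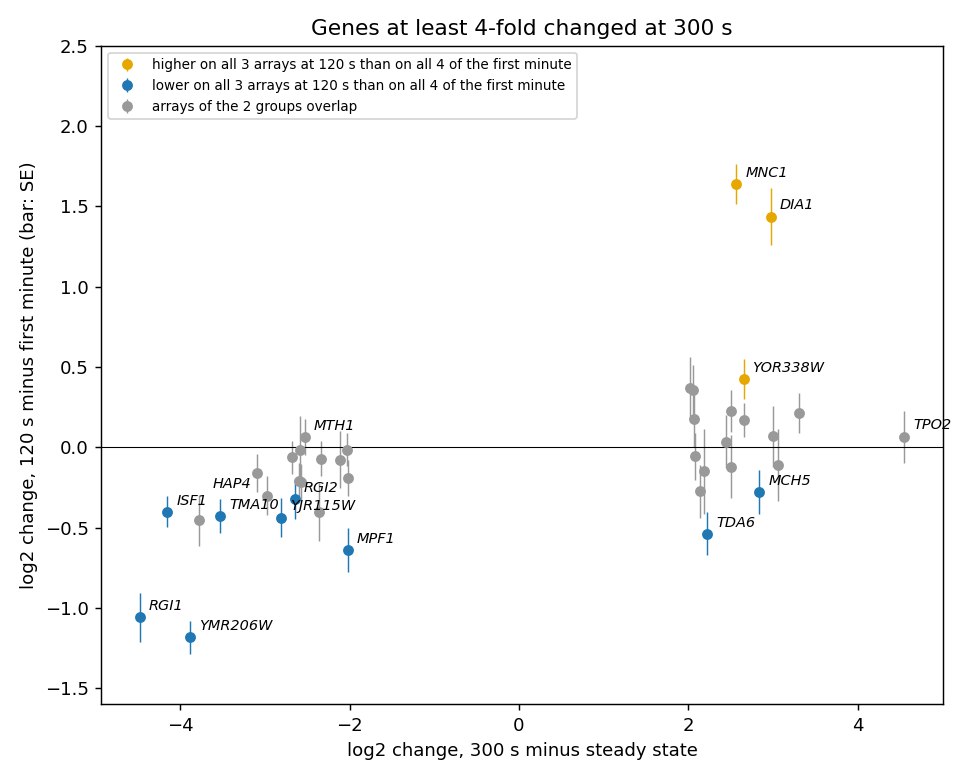
Log2 change at 120 s against the first minute (vertical axis, bars are SE) against log2 change at 300 s against the steady state (horizontal axis) for the 39 genes changed at least 4-fold at 300 s, coloured by whether the arrays of 120 s and the first minute overlap. MNC1 and DIA1 stand apart at the top right and RGI1 and YMR206W at the lower left, while TPO2, 4.55 higher at 300 s, has a change of 0.07 at 120 s.

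Gene groups were read through 37 lists of pathways and complexes. Of these, 1 list held a called gene, the HAP complex and respiratory regulators, through RGI1. For each list the median over its members was taken on every array, relative to the first minute and to the median of all genes. In 5 lists this median was higher on all 3 arrays at 120 s than on all 4 of the first minute, and in 2 it was lower. The shifts were small, and no test was made of them. Counts of list members without overlap stand beside a background over all genes of 3.42% higher and 5.03% lower. For members called at 300 s the background is 8.53% higher and 10.3% lower.

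Among the regulators of respiration, 1 of the 16 members tested fell, RGI1, and 3 were lower without overlap (RGI1, RGI2 and ISF1) while 1 was higher, ROX1, the repressor of hypoxic genes, at 0.45 ± 0.14, named after its value was seen. The list median lay 0.06 to 0.09 below zero on the 120 s arrays, and between -0.05 and 0.06 in the first minute. HAP2, HAP3 and HAP5, the DNA-binding subunits of the HAP complex, had log2 changes of 0.00, -0.06 and -0.19. At 300 s the list median was -0.60.

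Of 42 genes of the respiratory chain and the ATP synthase, a list that also holds TMA10, 0 were called, 3 were higher without overlap, among them ATP5, and 2 lower, TMA10 among them, and the list median was 0.04 above all genes. QCR8, a subunit of the cytochrome bc1 complex, had the largest value, 0.71 ± 0.32, with overlapping groups. In the TCA cycle list of 31, CIT2, the peroxisomal citrate synthase, averaged 717 ± 45.9 at 120 s (SD, n = 3) and 548 ± 43.3 in the first minute (SD, n = 4), a log2 change of 0.39 ± 0.10 (limma, adjusted p = 0.294), with 0.38 within each of pulses 2 and 3.

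Reserve carbohydrate genes lay slightly lower. Of 24 genes of trehalose and glycogen 0 were called, 3 were lower without overlap and 0 higher, and 5 had a positive log2 change. Their median lay 0.04 to 0.08 below zero on the 120 s arrays and between -0.02 and 0.02 in the first minute, and at 300 s it was -0.79. TSL1, a subunit of trehalose synthase, averaged 229 ± 7.38 at 120 s (SD, n = 3) and 320 ± 37.0 in the first minute (SD, n = 4), a log2 change of -0.48 ± 0.11 (limma, adjusted p = 0.259), and GLC3, the glycogen branching enzyme, had -0.01.

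Genes for gluconeogenesis and the glyoxylate cycle showed no called member among 30, with 1 higher and 3 lower without overlap and a median 0.08 below all genes. PCK1, which encodes the key gluconeogenic enzyme, had means of 238 ± 28.0 at 120 s (SD, n = 3) and 238 ± 10.1 in the first minute (SD, n = 4), FBP1, for fructose-1,6-bisphosphatase, had a log2 change of -0.25 ± 0.14 and ICL1, for isocitrate lyase, had 0.07 ± 0.11. CAT2, carnitine acetyltransferase, had -0.59 ± 0.24, which rested on pulse 1: its array lay 1.41 below the first-minute mean, while the change was -0.25 within pulse 2 and -0.12 within pulse 3.

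Of 29 genes of glucose sensing and phosphorylation 0 were called, 2 were higher and 4 lower without overlap, and the list median lay 0.00 log2 units above all genes. STD1, a relative of MTH1, averaged 33.2 ± 3.12 at 120 s (SD, n = 3) and 42.8 ± 4.02 in the first minute (SD, n = 4), a log2 change of -0.37 ± 0.14 (limma, adjusted p = 0.587), against 1.12 at 300 s. SNF3, the high-affinity sensor, had -0.46 ± 0.18, and MIG1, the main glucose repressor, had -0.06 ± 0.15, a sign that turned in 4 of 27 alternatives. Among the 10 hexose transporters tested, HXT1, the low-affinity transporter, had 19.4 ± 1.47 at 120 s (SD, n = 3) and 26.4 ± 1.10 in the first minute (SD, n = 4), a log2 change of -0.44 ± 0.13 (limma, adjusted p = 0.486). HXT7, a high-affinity transporter nearly identical to HXT6 in sequence, had -0.09 ± 0.14.

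Among the genes of growth, no change was detectable gene by gene. Of 135 ribosome biogenesis factors 0 were called, 3 were higher and 0 lower without overlap, and 86 had a positive log2 change, where 45.3% of all genes tested did. Their median was 0.01 to 0.12 on the 120 s arrays, which overlapped the -0.06 to 0.07 of the first minute, and it was 0.82 at 300 s. NSR1, a nucleolar protein of rRNA processing, had 0.15 ± 0.11 and SSF2, a factor of large subunit assembly, had 0.45 ± 0.14 (limma, adjusted p = 0.486). SFP1 and STB3, regulators of ribosome gene transcription, had -0.50 ± 0.15 and -0.47 ± 0.14 without overlap (limma, adjusted p = 0.486 each). Of 80 cytosolic ribosomal proteins tested of 137 listed, 3 were higher and 4 lower without overlap, the lowest being RPL6A at -0.32 ± 0.09.

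The tRNA synthetases had the highest list median, 0.17 above all genes. On the 120 s arrays the median of the 20 genes was 0.08 to 0.20, and in the first minute -0.06 to 0.07. The 0.20 was the pulse 1 array. Within pulses 2 and 3 the change was 0.13 and 0.09, where the glycerol list had 0.24 and 0.14. Of the 20, 15 had a positive log2 change, 3 were higher without overlap and 0 lower, and 0 were called. ARC1, a cofactor that binds synthetases, averaged 402 ± 3.92 at 120 s (SD, n = 3) and 341 ± 32.7 in the first minute (SD, n = 4), a log2 change of 0.24 ± 0.10, with 0.24 within pulse 2 and 0.26 within pulse 3. At 300 s the list median was 0.36.

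Amino acid biosynthesis followed with a median 0.10 above all genes, 0.06 to 0.14 on the 120 s arrays and -0.06 to 0.03 in the first minute. Of 58 genes 44 had a positive change, 3 were higher and 0 lower without overlap, and 0 were called. LEU2, of leucine synthesis, had 0.39 ± 0.13, with 0.50 within pulse 2, 0.64 within pulse 3 and 0.04 for the pulse 1 array. HIS5, of histidine synthesis, averaged 141 ± 7.41 at 120 s (SD, n = 3) and 113 ± 5.27 in the first minute (SD, n = 4), 0.32 ± 0.11 on the log2 scale without overlap. At 300 s this list stood at 0.51, with 26 members called higher and 3 lower.

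Proteasome subunits lay 0.09 above all genes, and 28 of 34 had a positive change, 3 of them without overlap and 1 lower. Their median was 0.11 to 0.13 on the 120 s arrays and -0.04 to 0.05 in the first minute. At 300 s it was 0.03, with 0 called higher and 1 lower. PRE9, a subunit of the 20S core, averaged 352 ± 12.2 at 120 s (SD, n = 3) and 275 ± 60.8 in the first minute (SD, n = 4), a log2 change of 0.39 ± 0.16 (limma, adjusted p = 0.599). Mitochondrial ribosomal proteins, 71 tested, had 0.03 to 0.13 at 120 s and -0.02 to 0.02 in the first minute, with 49 positive and 0 called. The 0.13 was the pulse 1 array, while pulses 2 and 3 had 0.03 and 0.06. At 300 s the list stood at -0.30, with 13 called lower.

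Genes under nitrogen catabolite repression, 30 tested, had medians of 0.04 to 0.05 at 120 s and -0.02 to 0.02 in the first minute, with 1 higher and 2 lower without overlap. DAL5, the allantoate permease, had -0.37 ± 0.14. The purine and one-carbon list, at 0.97 by 300 s with 24 of 36 members called higher, was 0.05 above all genes at 120 s with 0 called. ADE17, of the last steps of purine synthesis, had -0.10 ± 0.17. Among 19 genes of G1 cyclins and Start 0 were called and 3 were lower without overlap: CLN3, CLN1, another G1 cyclin, at -0.42 ± 0.13, and SWI6, a subunit of the G1 transcription factors, at -0.38, named after its value was seen. General stress genes, 36 tested, had 1 higher and 4 lower without overlap. Of these genes, DCS1 had -0.36 ± 0.11 and HSP12, a membrane chaperone, had -0.08 ± 0.12.

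**Figure D5:**
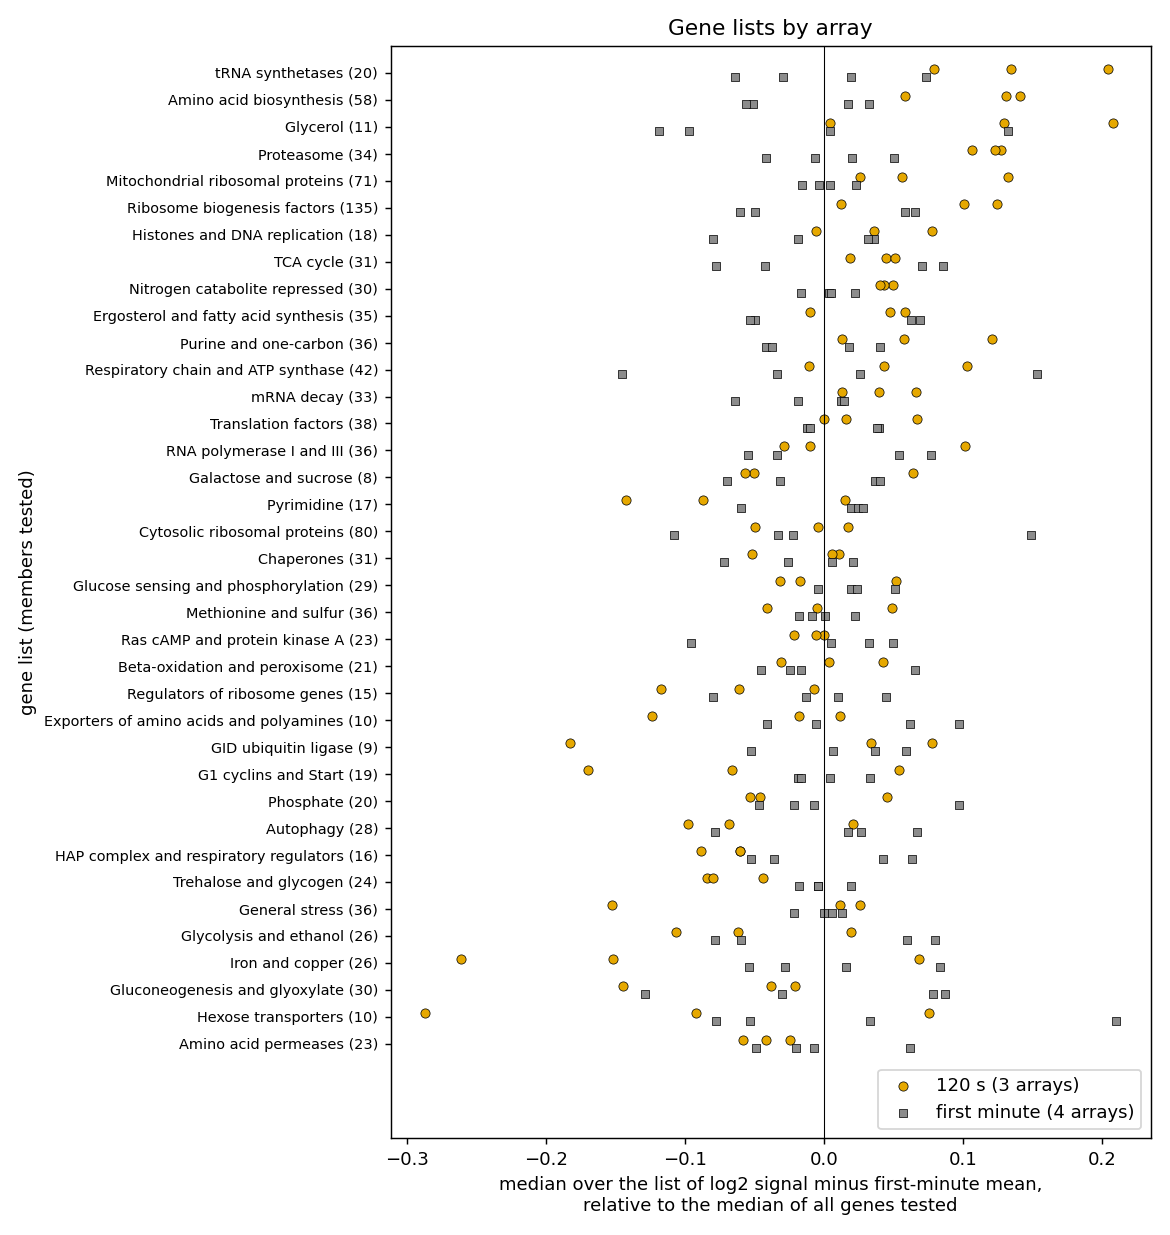
Median over each of 37 gene lists of the log2 signal minus the first-minute mean, relative to the median of all genes tested (horizontal axis), with the 3 arrays at 120 s as circles and the 4 first-minute arrays as squares, and the number of members tested in brackets. The tRNA synthetases, at 0.08 to 0.20 on the circles, amino acid biosynthesis and the proteasome stand right of their squares, trehalose and glycogen left, and most other lists overlap.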

How the data were processed

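The values are intensities, deposited by the authors as 1 linear signal for every probe set of an array. The submitters' processing notes name GCOS, software of the array's maker, whose release and options the sources used here do not give. Arrays were scaled to equal means of 150 after trimming 2% at either end, raised to a floor of 12 and turned into log2. Of 9335 probe sets 6504 carry 1 gene, 328 several and 2503 none in the annotation used. Where a gene had several probe sets, the one with the largest average log2 signal represented it (5656 genes). Genes that exceeded the floor on at least 2 of the 7 arrays were tested (5289), and 367 were not. Names come from RefSeq's R64 table.

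The 7 arrays were fitted with limma 3.58.1 in R 4.3.3 (eBayes with a variance trend, 5 residual and 6.95 prior degrees of freedom), with Benjamini-Hochberg adjustment over all 5289 genes. The procedure was also run on simulated signals, whose noise was independent between arrays, so the simulation does not cover arrays that share a culture. The 3 arrays at 300 s and 3 at steady state had a fit of their own. Pulse numbers, from the titles, pair arrays of 1 culture: deviations from the group means correlated at 0.155 and 0.175 within pulse 2 (30 s and 60 s with 120 s) and 0.203 and 0.273 within pulse 3. Between 30 s and 60 s the correlation was 0.0893, a single value, since 2 arrays per time make both pulses equal by construction. The number of arrays limits the precision.

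Genes and lists were chosen with earlier results of these data known. Named were called genes without overlap (up to 15 a direction), filled to 10 by the smallest p among genes without overlap and a log2 change of at least 0.5. Named too were up to 3 called members per list, or else the 2 with the largest change, and genes fixed by name. Alternatives covered scaling, floor, filter, probe sets, variance model, blocks, and each array left out. Promoter and protein sequences were not analysed here.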

Additional observations from a re-analysis of the deposited data

Results flagged for a closer look

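Among the samples of the named genes and lists, 110 groups of 4 values were checked for a sample far from the others, and 3 were marked, where chance gives about 1 in 20. FLR1, a multidrug exporter, read 144 at 30 s in pulse 2, and the nearest other first-minute array read 116. PHO84, the phosphate transporter, read 25.4 at 60 s in pulse 3, with the nearest at 14.2 and another at the floor of 12. DIT1, a sporulation gene, read 12.7 at 60 s in pulse 2, with the others between 12 and 12.1, at or next to the floor.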

How the results depend on the processing

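In 27 alternatives the 5 called genes kept their direction. These alternatives are not all distinct. Those that changed only the threshold used the main fit, so no direction could turn in them. The pulse block, the day block and the fit without the 120 s array of pulse 1 gave the same log2 changes. The count of changed genes, 5 (3 higher, 2 lower), was 2 (1 and 1) without a filter on dim genes, with the filter applied over all 16 arrays, against 60 s alone, against 30 s alone, and with 1 value per culture. In each of these the 2 were MNC1 and YMR206W, while DIA1, ICY1 and RGI1 were lost. Just 1 gene was lower without the variance trend, with 15 arrays in 1 fit and at an adjusted p under 0.01. Leaving out each array gave 4 to 6 genes, 3 to 4 higher and 1 to 2 lower. With the pulse number as a replicate block, which here equals the day as a block, there were 6 (4 and 2), with OAC1 added and no other call changed. YOR385W was added with median centring, with a mean signal of at least 50 and with a robust variance model. At 300 s against the steady state, leaving out an array gave 512 to 966 genes in place of 997, the pulse as a replicate block gave 1297, and the day as a block, chosen after seeing the data, gave 861, with the 5 genes called in the same direction in each of these fits. None of the genes whose sign turned had passed the test. Against 60 s alone GPR1 was -0.0087 and PDE2 -0.029, and against 30 s alone PHO84 was 0.061, PCK1 0.0196 and TPO2 -0.078. Quantile normalization gave 0.0197 for HXT7 and 0.0157 for HSP12, and median centring 0.0070 for PCK1. The replicate block and the day block gave 0.080 for MIG1, 0.0132 for PCK1, 0.0149 for HSP12 and -0.000744 for TPO2. With each array left out, the range was -0.184 to 0.080 for MIG1, -0.093 to 0.072 for PCK1, -0.0086 to 0.134 for ICL1, -0.147 to 0.0149 for HSP12, -0.073 to 0.165 for PDE2, -0.046 to 0.150 for TPO2 and -0.258 to 0.064 for ADE17. The cause of these differences was not tested. Changes of genes near the floor are understated.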

Other observations

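Several list members with large values did not have the same size in every pulse, and none passed limma's adjusted threshold. ERG6, the sterol methyltransferase of ergosterol synthesis, had a log2 change of -0.65 ± 0.26, made up of -0.35 within pulse 2, -1.54 within pulse 3 and -0.07 for the pulse 1 array. ADE2, of purine synthesis, had 0.56 ± 0.40, with 1.11 within pulse 3 and -0.00 within pulse 2. ADE4, the first enzyme of that pathway, had -0.63 ± 0.26, with -1.12 within pulse 2 and 0.09 within pulse 3. MAC1, the copper-sensing activator, had 0.50 ± 0.29, with -0.29 within pulse 2 and 1.15 within pulse 3.

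Other members did not pass either. INO2, an activator of phospholipid genes, had 0.53 ± 0.18, with 0.66 within pulse 2, 0.39 within pulse 3 and 0.52 for the pulse 1 array, and 1.35 at 300 s. GPP1 and GPP2, the glycerol-3-phosphatases, had 0.35 ± 0.14 and 0.36 ± 0.16 at 120 s, and 1.37 and 2.06 at 300 s. Within pulses 2 and 3 GPP1 had 0.55 and 0.45, against 0.05 for the pulse 1 array, and GPP2 had 0.57 and 0.32, against 0.18. TPO4, a polyamine exporter, had -0.26 ± 0.10 without overlap, against -1.45 at 300 s, where its relative TPO2 had 4.55. CAF40, a subunit of the CCR4-NOT deadenylase, had -0.41 ± 0.12 without overlap.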
